A study of Mus musculus with 40 samples.

Results

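Keratins form the intermediate filaments of epithelial cells, and the members described here are the simple or luminal keratins Krt7, Krt8, Krt18 and Krt19 and the basal keratins Krt5, Krt14 and Krt17. They were chosen by name, as rows of the deposited expression table that carry those symbols. Of the 7 keratins, 6 have a row among the 21347 genes kept and all 6 passed the filter on low values, as did 14701 genes in all; Krt5 was not analysed here. The luminal group therefore holds 4 genes and the basal group holds Krt14 and Krt17.

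A keratin filament is built from pairs of a type II and a type I keratin, so that neither partner assembles alone. In the mammary gland the type II keratins Krt7 and Krt8 and the type I keratins Krt18 and Krt19 mark the luminal cells that line the ducts, while the type II keratin Krt5 pairs with the type I keratins Krt14 and Krt17 in basal and myoepithelial cells. Krt17 is also known as a stress keratin of injured and inflamed skin. T cells do not use these keratins, and the genes serve as markers of the carcinoma cells in a mixture.

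RNA was sequenced from 4T1, a mammary carcinoma line that arose in a BALB/c mouse, grown for 24 h with or without T cells from spleens of C57Bl6 mice. Wells were coated at 250 µg per ml with 1 of 4 matrix proteins (vitronectin, fibronectin, collagen IV, collagen I) or were left as bare tissue culture polystyrene, called uncoated plastic here. Both arms carried interleukin 2 at 30 U per ml, and T cells were seeded at 80000 per cm2 onto carcinoma cells at 10000 per cm2. Free cells were pooled with the detached ones before RNA extraction, so a co-culture library holds RNA of both cell types. There were 18 co-cultures: 4 each on collagen IV, fibronectin and uncoated plastic, and 3 each on vitronectin and collagen I. There were 22 libraries of 4T1 alone: 5 each on fibronectin and uncoated plastic, and 4 each on the other coats. The libraries came from 5 experiments, which are the biological replicates of 1 cell line. Experiment 1 holds uncoated plastic and fibronectin only, and experiment 3 has a single co-culture, on collagen IV.

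Values are given as reads per M, that is reads per mega-read of the authors' scaled library size, and tests used limma on log2(value + 1) with p-values adjusted over the 14701 genes by the Benjamini-Hochberg method and a threshold of 0.05. Depth was 18.95 to 47.73 M reads, with 239.13 M in the collagen IV co-culture of experiment 5. The members had at least 51 recovered reads in each library, so that counting error was small beside the spread between experiments. The carcinoma label held: Epcam had a median of 106 per M in co-culture and 117 per M in 4T1 alone, and Cdh1 had 456 and 480 per M in the same order. The T cell gene Cd3e had a median of 1.31 per M in co-culture and was at 0 in 17 of the 22 libraries of 4T1 alone.

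The genes lie in the mouse keratin clusters on chromosomes 15 and 11. In the mouse build mm10 (GRCm38), Krt7 spans chr15:101411043-101430313 on the plus strand, Krt8 chr15:101996698-102004482 on the minus strand and Krt18 chr15:102028180-102032027 on the plus strand. Krt8 and Krt18 are neighbours that point away from each other, 23697 bases apart, although Krt18 is a type I gene among type II genes. On the minus strand of chromosome 11, Krt19 spans chr11:100140810-100148665, Krt14 chr11:100203162-100207548 and Krt17 chr11:100256217-100261029. Krt16, a type I keratin known from wounded skin, lies between Krt14 and Krt17, 38542 bases from the one and 7314 bases from the other.

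The promoters of Krt8 and Krt18 are shown because the levels of these filament partners moved together across the libraries. Each runs from 250 bases before to 50 bases after the start in RefSeq (GRCm38.p6), 5′ to 3′ on the strand of the gene, at chr15:102004293-102004592 (minus strand) for Krt8 and chr15:102027966-102028265 (plus strand) for Krt18. Capitals mark TATAAA, searched on both strands, with its overlapping match on the other strand.
Krt8: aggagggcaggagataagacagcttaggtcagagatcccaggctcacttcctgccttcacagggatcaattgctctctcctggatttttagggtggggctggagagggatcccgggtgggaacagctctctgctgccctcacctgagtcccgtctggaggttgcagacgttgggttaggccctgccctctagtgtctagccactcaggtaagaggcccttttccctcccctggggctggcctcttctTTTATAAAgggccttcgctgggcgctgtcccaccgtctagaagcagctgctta
Krt18: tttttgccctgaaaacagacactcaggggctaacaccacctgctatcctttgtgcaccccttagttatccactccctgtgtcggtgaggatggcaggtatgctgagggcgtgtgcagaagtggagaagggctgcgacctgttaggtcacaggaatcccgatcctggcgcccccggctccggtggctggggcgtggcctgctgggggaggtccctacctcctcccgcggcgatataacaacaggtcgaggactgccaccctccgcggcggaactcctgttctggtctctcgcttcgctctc
The capitals begin at base 248 of the Krt8 window, close to the RefSeq start, and the Krt18 window held no match. The gene spans given above for Krt8 and Krt18 begin inside these windows, upstream of the RefSeq starts. TATAAA was found in 13.6% of 32851 mouse promoters of the same length. TGANTCA, the letters bound by AP-1 factors, was in neither window and is in 7.81% of all promoters; GGGCGG, the letters bound by Sp1, was also in neither and is in 35.7%. A match or its lack describes these letters in this window only.

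The luminal keratins Krt7, Krt8 and Krt18 were the abundant ones. Per kb of coding sequence, Krt7 averaged 450 ± 83.9 in co-culture and 524 ± 60.8 reads per M in 4T1 alone (SD, n = 18 and 22). Krt8 averaged 438 ± 93.7 in co-culture and 513 ± 65.7 in 4T1 alone on that scale, and Krt18 averaged 432 ± 76.2 and 507 ± 60.3. These 3 levels differed by less than the spread between libraries. With the longest gene model used, Krt7 has 4094 transcript bases of which 1371 are coding, so its rank rests on the choice of coding length.

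Per coding kb, the type II keratin Krt8 and its type I partner Krt18 were present at close to 1 to 1. The ratio of their levels per coding kb was 1.01 ± 0.0681 in co-culture (SD, n = 18; 0.891 to 1.12) and 1.01 ± 0.0600 in 4T1 alone (SD, n = 22; 0.901 to 1.11). Per kb of transcript, Krt8 averaged 329 against 382 for Krt18 in co-culture, and 385 against 448 in 4T1 alone. Their ratio thus rests on the choice of coding length. Krt19, a small type I keratin without a tail domain, stood lower, at 52.8 ± 10.97 in co-culture and 61.8 ± 6.204 reads per M per coding kb in 4T1 alone. On average Krt19 was below the basal keratin Krt14 in both arms.

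Of the basal keratins, Krt14 averaged 88.4 ± 46.2 in co-culture and 115 ± 43.6 reads per M per coding kb in 4T1 alone, and Krt17 averaged 3.16 ± 1.77 and 3.95 ± 1.60. The stress keratin Krt16, no member, averaged 11.995 ± 7.22 in co-culture and 15.5 ± 7.77 on the same scale. Summed per coding kb, the basal keratins made up 6.01 ± 2.20% of the 6 keratins in co-culture and 6.77 ± 2.02% in 4T1 alone (SD, n = 18 and 22), with a range of 3.01% to 10.1% in co-culture and 3.53% to 10.6% in 4T1 alone. Of 46 other keratins listed, 11 have a row in the table and 4 passed the filter, namely Krt16, Krt80, Krt10 and Krt87.

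**Figure D1:**
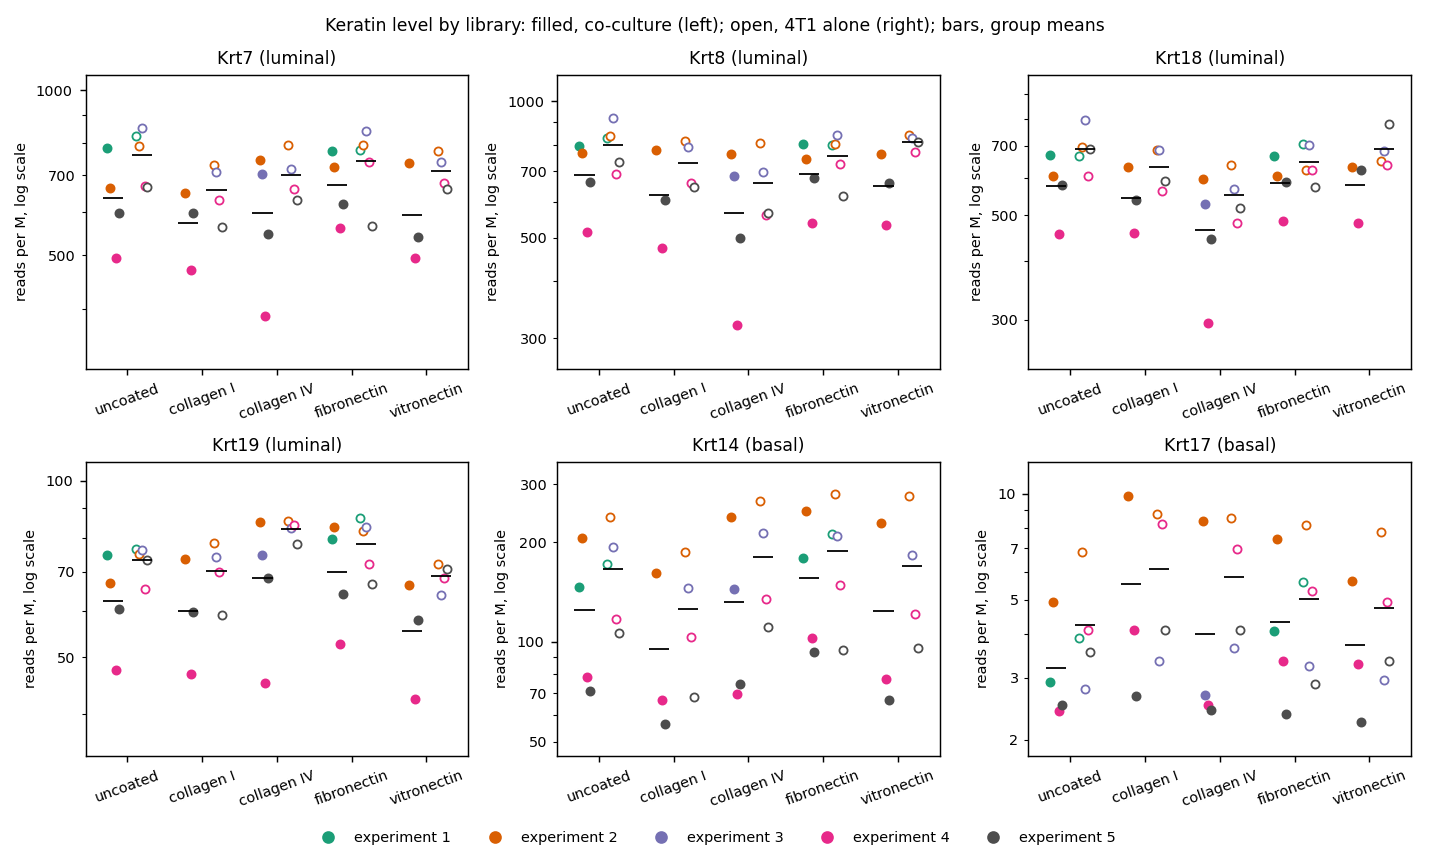
Reads per M (log axis) of the 6 keratins in each library by substrate, with co-cultures as filled points on the left and 4T1 alone as open points on the right of each pair, coloured by experiment, and bars at group means. Krt14 was highest in experiment 2 and low in experiments 4 and 5 on all substrates, with or without T cells.

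The experiment set most of the spread of the basal keratins. In 4T1 alone, 86.4% of the sum of squares of log2 Krt14 and 83.4% of that of Krt17 lay between experiments, against 73.3% for Krt7, 52.6% for Krt8, 29.6% for Krt19 and 28.2% for Krt18. Krt14 averaged 192 ± 28.2 per M in experiment 1 (SD, n = 2), 249.5 ± 38.6 in experiment 2, 189 ± 26.9 in experiment 3, 125 ± 16.9 in experiment 4 and 95.2 ± 16.7 in experiment 5 (SD, n = 5 each). Krt17 did not follow that order, with 4.74 ± 1.21 per M in experiment 1 (n = 2), 7.99 ± 0.744 in experiment 2, 3.19 ± 0.339 in experiment 3, 5.89 ± 1.65 in experiment 4 and 3.59 ± 0.516 in experiment 5 (SD, n = 5 each).

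Krt14 was thus high in experiment 2 and low in experiments 4 and 5, whereas Krt17 in experiment 4 was above experiments 3 and 5 on average. Experiment 1 holds uncoated plastic and fibronectin only. On these, in that order, Krt17 in 4T1 alone had 3.88 and 5.59 per M in experiment 1, against 4.11 and 5.30 in experiment 4. In the limma F test over experiments with the substrate as a term, 5 of the 6 keratins passed, beside 61.4% of all genes. The adjusted p was 5.61e-10 for Krt14, 2.76e-07 for Krt17, 8.81e-05 for Krt7, 0.000537 for Krt8 and 0.0421 for Krt19, and Krt18 missed the threshold (0.0576). An experiment carries any technical batch that goes with it, and these cannot be told apart.

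Across the 22 libraries of 4T1 alone, Krt8 and Krt18 varied together and Krt14 varied apart from them. Pearson's r of log2(value + 1) was 0.90 for Krt8 with Krt18, and 0.96 once the mean of each experiment was taken out. Krt8 and Krt14 had an r of 0.62 and of −0.05 with experiment means taken out. Krt7, although a luminal type II keratin, had an r of 0.87 with Krt14 (0.59 with experiment means out) and 0.79 with Krt8 (0.56).

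Krt19 varied apart from both luminal partners, with an r of 0.16 with Krt8 and −0.000758 with Krt18, and −0.36 and −0.29 with experiment means out. It had an r of 0.65 with Krt14 and 0.58 with experiment means out. Krt14 and Krt17, grouped together as basal, had an r of 0.40 and of −0.08 with experiment means out, while Krt14 with its neighbour Krt16 had 0.96 and 0.72. Krt17 had 72 to 373 recovered reads in these libraries, so counting error can lower its r, most of all with experiment means out. These correlations are descriptions over 22 libraries that share experiments and substrates. Krt14 shares 5.91% of its 75-base windows with other annotated transcripts, all of them of Krt16, and the Krt16 transcript shares 28.9% of its windows with Krt14 and Gm11597, so reads between these rows are uncertain.

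**Figure D2:**
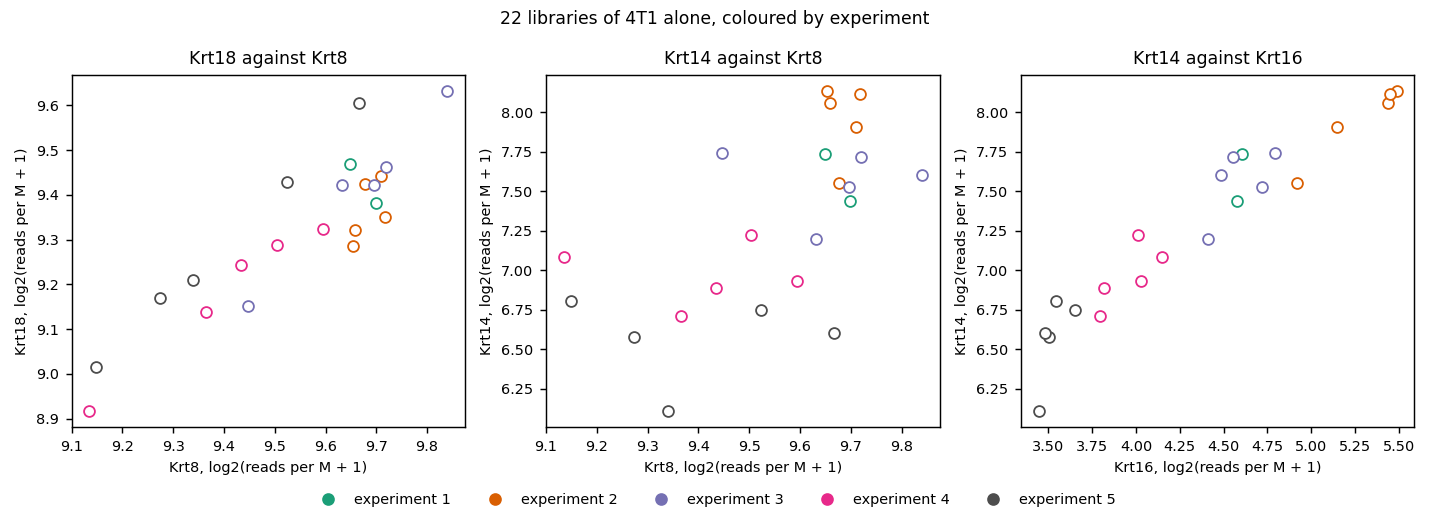
Log2(reads per M + 1) of Krt18 against Krt8, Krt14 against Krt8 and Krt14 against Krt16 in the 22 libraries of 4T1 alone, each point a library coloured by experiment. Krt8 and Krt18 lie along 1 line within experiments (r = 0.96 with experiment means out), Krt14 separates by experiment and shows no slope with Krt8 within them (r = −0.05).

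The genes most like each group were taken among 9571 other genes with a mean of at least 10 per M over the same 22 libraries. With the mean of the 4 luminal keratins, the highest r were those of Krt8-ps (0.94), the small GTPase gene Rab25 (0.89) and the desmosome plaque gene Pkp3 (0.87). Krt8-ps is a processed copy of Krt8 on chromosome 7 with 98.6% identity over 941 bases. It shares 47.5% of its 75-base windows with Krt8, and Krt8 shares 21.97% of its own with the copy, so reads between these rows are uncertain. With experiment means taken out the 3 were Krt8-ps (0.88), the lipid enzyme genes Tecr (0.86) and Acsbg1 (0.86). With the mean of Krt14 and Krt17 they were Ass1 (0.95), which makes argininosuccinate, Gm5424 (0.94) and the transcription factor gene Nfil3 (0.93), and with experiment means out Ddx58 (0.80), Armc6 (0.77) and the enolase gene Eno3 (0.76).

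The first comparison asked what adding T cells did to the keratins of the mixture. All 4 luminal keratins fell in co-culture, by 0.24 to 0.26 on the log2 scale, while the basal keratins had larger mean differences and a larger spread. Of the 14701 genes, 25.2% passed in either direction and 12.2% were lower, so the count of 4 lower of 6 keratins stands beside that share. Averaged over the 5 substrates, the log2 difference was −0.24 ± 0.07 (SE) for Krt7 (adjusted p = 0.0228), −0.25 ± 0.09 for Krt8 (0.0342), −0.24 ± 0.07 for Krt18 (0.0161) and −0.26 ± 0.07 for Krt19 (0.0143), with limma and n = 18 against 22 libraries. The basal keratins did not pass, with −0.47 ± 0.21 for Krt14 (0.0913) and −0.30 ± 0.17 for Krt17 (0.177). The median over all genes was −0.01. In a mixture, fewer carcinoma cells and less keratin RNA per cell cannot be told apart.

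With the experiment as a block, a fit that compares the arms within experiments, all 6 keratins fell, beside 23.4% of all genes lower (45.8% in either direction). The log2 difference was then −0.40 ± 0.05 for Krt14 (adjusted p = 2.67e-06) and −0.41 ± 0.07 for Krt17 (0.000119), against −0.20 ± 0.05 for Krt7 (0.00126), −0.21 ± 0.05 for Krt8 (0.00256), −0.21 ± 0.05 for Krt18 (0.00134) and −0.25 ± 0.05 for Krt19 (0.000629). With or without the block, each library counts as a replicate of the T cell effect. Libraries of the same experiment are not independent replicates of it. The SEs and p-values of these fits therefore do not measure the spread of the effect over the 5 experiments. The calls without a block rested on single experiments and libraries. Without experiment 4 no keratin passed (−0.13 for Krt7 and Krt8, −0.15 for Krt18, −0.12 for Krt19), beside 0.381% of all genes lower (2.92% in either direction). Without experiment 3 only Krt19 passed, beside 3.96% lower (9.29% in either direction), and without the experiment 4 co-culture on collagen I, or that on vitronectin, 2 did. With the block and without experiment 4, Krt14 was at −0.31 (7.62e-06) and Krt17 at −0.29 (0.00300), and Krt7 at −0.10 (0.0478) and Krt19 at −0.11 (0.0329) also passed. Krt8 at −0.10 (0.0798) and Krt18 at −0.13 (0.0501) did not. The count of 4 lower of 6 stands beside 4.69% of all genes lower (10.4% in either direction) in that fit.

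Krt14 had the lower value in co-culture in each of the 18 pairs of the same experiment and substrate. On uncoated plastic it had 146, 206, 78.4 and 71.1 per M in the co-cultures of experiments 1, 2, 4 and 5, against 172, 239, 193, 118 and 106 per M in 4T1 alone of experiments 1 to 5. On collagen IV it had 239, 144, 69.8 and 74.4 per M in the co-cultures and 266, 213, 135 and 111 per M in 4T1 alone, both of experiments 2 to 5. The arms overlapped across experiments on every substrate, and within an experiment the co-culture was always the lower.

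The same held on the other coats. On fibronectin Krt14 had 179, 249, 103 and 93.0 per M in the co-cultures of experiments 1, 2, 4 and 5, against 212, 280, 209, 148 and 94.7 per M in 4T1 alone of experiments 1 to 5. On collagen I it had 162, 66.8 and 56.6 per M in the co-cultures of experiments 2, 4 and 5, against 187, 146, 104 and 68.0 per M in 4T1 alone of experiments 2 to 5. On vitronectin it had 229, 77.3 and 66.8 per M in the co-cultures of experiments 2, 4 and 5, against 276, 184, 121 and 96.1 per M in 4T1 alone of experiments 2 to 5. The smallest gap was that of fibronectin in experiment 5. Over all genes, 75 (0.51%) were lower in co-culture in all 18 pairs, and Krt14 is the only member among them. No gene and no keratin had all co-cultures below all libraries of 4T1 alone.

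The other keratins were lower in 16 of 18 pairs (Krt7, Krt8, Krt18 and Krt19) and in 17 of 18 pairs (Krt17). Within pairs, Krt14 differed by a mean of −0.41 ± 0.24 and Krt17 by −0.41 ± 0.30 on the log2 scale (SD, n = 18 pairs from 5 experiments). Krt7 differed by −0.21 ± 0.22, Krt8 by −0.21 ± 0.23, Krt18 by −0.21 ± 0.18 and Krt19 by −0.25 ± 0.26. The mean of the luminal keratins minus that of the basal keratins was 0.19 ± 0.13 higher in co-culture (SD, n = 18 pairs) and higher in 17 of 18 pairs, with 0.20 ± 0.14 in the 13 pairs outside experiment 4. As a score over chosen members it was given no test. The log2 difference of Krt14 minus Krt8 was lower in co-culture in 18 of 18 pairs, by −0.53 to −0.06.

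**Figure D3:**
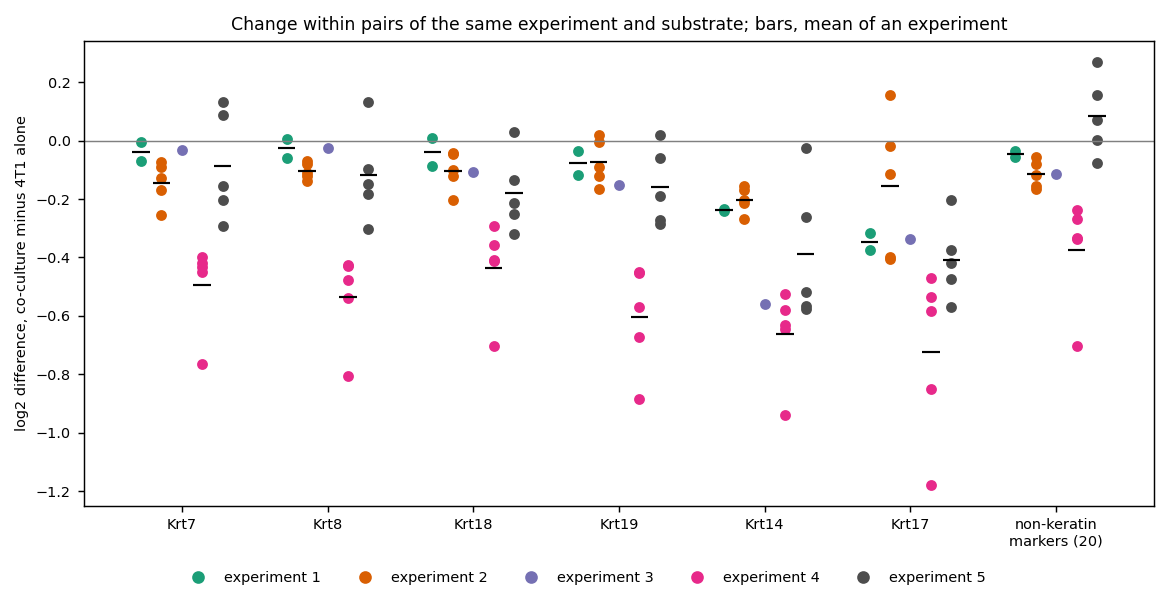
Log2 difference, co-culture minus 4T1 alone, in the 18 pairs of the same experiment and substrate for the 6 keratins and for the mean of 20 other epithelial markers, coloured by experiment, with a bar at each experiment's mean. The 5 pairs of experiment 4 lie below all others for Krt7, Krt8 and Krt19, and Krt14 is below 0 in all pairs.

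The size of the fall differed between experiments. In a limma fit with an interaction of T cells and experiment, all 6 keratins passed, beside 45.1% of all genes, with adjusted p of 7.60e-06 for Krt19, 0.000861 for Krt7, 0.00108 for Krt8, 0.00248 for Krt14, 0.0210 for Krt17 and 0.0343 for Krt18. In experiment 4 the mean log2 difference within pairs was −0.53 ± 0.16 for Krt8 and −0.66 ± 0.16 for Krt14 (SD, n = 5 pairs). In experiment 2 it was −0.10 ± 0.03 for Krt8 and −0.20 ± 0.04 for Krt14 (SD, n = 5). Without experiment 4 none of the 6 passed this test in limma, beside 6.62% of all genes, with adjusted p of 0.227 for Krt14 and 0.557 to 0.936 for the others.

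The pair of collagen IV in experiment 4 was the most extreme for each of the 6 keratins. There Krt8 had 321 per M in co-culture and 561 per M in 4T1 alone, Krt18 had 295 and 482 per M, and Krt17 had 2.52 and 6.95 per M, which is −1.18 on the log2 scale for Krt17. Krt19 had 45.2 per M in that co-culture and 84.2 per M in 4T1 alone, a difference of −0.88.

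T cell RNA was highest in experiment 4, where the mean falls were largest. The other experiments do not all hold the same substrates, which limits a comparison of their falls. The summed level of the 20 T cell markers listed, all of which rose, was 1101.5 to 3325 per M in experiment 4 with T cells, 218 to 328 in experiment 1, 35.3 to 56.7 in experiment 2, 24.2 in experiment 3 and 21.3 to 46.2 in experiment 5. It was 2.79 to 5.81 per M in 4T1 alone. The 3325 per M belong to the collagen IV co-culture of experiment 4. The other marker sums were, in co-culture and 4T1 alone, 23.4 to 3259 and 3.21 to 6.95 per M for 6 leukocyte genes in general, 0.913 to 139 and 0 to 0.236 for 5 B cell genes, 0.183 to 45.8 and 0.0809 to 0.575 for 5 erythroid genes, 4.79 to 11.9 and 5.08 to 11.3 for the 4 of 7 fibroblast genes in the table, 3.77 to 7.89 and 2.56 to 4.97 for 6 of 7 myeloid genes, and 0.589 to 75.6 and 0.147 to 0.534 for 2 of 4 endothelial genes. Of those 20 T cell markers, none was at 0 in every library of either arm. Experiment 1, second in T cell RNA, had a mean difference of −0.03 for Krt8 and −0.24 for Krt14 (2 pairs). Experiment 5, with less T cell RNA, had −0.12 and −0.39 (5 pairs). Experiment 1 holds uncoated plastic and fibronectin only. On these, in that order, Krt8 differed by −0.06 and 0.005 in experiment 1 and by −0.15 and 0.13 in experiment 5. Krt14 differed by −0.24 and −0.24 in experiment 1 and by −0.58 and −0.03 in experiment 5. The part of T cell RNA in the keratin result was not tested further.

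Set against other genes of the carcinoma cells, the luminal keratins were closer to level on average, though not in experiment 5, and Krt14 was lower in every pair. The mean of 20 non-keratin epithelial markers (among them Epcam, Cdh1 and claudins) differed by −0.12 ± 0.21 within pairs (SD, n = 18), lower in 14 of 18. Relative to that mean, Krt14 differed by −0.28 ± 0.19 and was lower in 18 of 18 pairs, and the luminal mean differed by −0.10 ± 0.13 and was lower in 13 of 18. By experiment, Krt14 relative to these markers differed by −0.19 in experiment 1, −0.09 in experiment 2, −0.45 in the single pair of experiment 3, −0.29 in experiment 4 and −0.47 in experiment 5. The luminal mean relative to them differed by −7.4e-05, 0.01, 0.03, −0.14 and −0.22 in experiments 1 to 5. It was lower in all 5 pairs of experiment 4 and all 5 of experiment 5. In experiment 5 the markers themselves differed by 0.08, and the luminal mean by −0.14 before they were taken off.

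Scaling each library to these 20 markers left no keratin past the threshold without a block, where 0.0068% of all genes were lower (2.12% in either direction) and the median over all genes stood at 0.12. With the block and this scaling all 6 keratins were lower, with −0.28 for Krt14 (adjusted p = 6.14e-05) and −0.31 for Krt17 (0.00163), beside 1.32% of all genes lower (38.7% in either direction), where the median over all genes was 0.10.

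Taken substrate by substrate, limma without a block passed 0 genes (0%) everywhere. Vitronectin had 1409 genes with an unadjusted p under 0.05 (edgeR passed 0), fibronectin 353 (111), collagen IV 1444 (266), collagen I 159 (0) and uncoated plastic 1516 (105), with no keratin among those that edgeR passed. With the block, Krt14 fell on uncoated plastic by 0.41 on the log2 scale (adjusted p = 0.0326; 3.78% of genes passed and 2.73% were lower). On collagen IV it fell by 0.55 (0.0471), the single gene that passed there (0.0068%). On vitronectin Krt14 differed by −0.45 ± 0.11 (0.0758) in that fit, on collagen I by −0.37 ± 0.11 (0.839) and on fibronectin by −0.24 ± 0.09 (0.720). edgeR with the block also passed Krt14 on vitronectin (adjusted p = 0.00800, beside 2.26% of genes lower), and Krt17 beside Krt14 on uncoated plastic (0.0443, 3.6% lower) and on collagen IV (0.0280, 1.46% lower). The T cell effect on the keratins was not found to differ between substrates: no gene passed the interaction test in limma or in edgeR, with or without the block, and without it 53 had an unadjusted p under 0.05 in limma and 60 in edgeR.

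The second comparison asked how the matrix coats bear on the keratins. No keratin passed against uncoated plastic in either arm, with limma or edgeR and with or without the block. Without the block limma passed 0.0068% of genes for collagen I in co-culture and 0.0952% in 4T1 alone, 0.0136% and 0.0068% for collagen IV, and 0% for the other coats. With the block the shares were 0.306% and 0.68% for collagen I, 0.286% and 0.136% for collagen IV, 0% and 0.0068% for fibronectin, and 0.0136% in each arm for vitronectin. In the limma fit over all genes, at an unadjusted p under 0.05 and without the block, Krt18 on collagen IV was the only keratin, at −0.34 ± 0.15 in co-culture (adjusted p = 1.00) and −0.32 ± 0.14 in 4T1 alone (adjusted p = 1.00). In an F test over the 5 substrates with the block, Krt14 passed in both arms, with an adjusted p of 0.00707 in co-culture (1.6% of genes passed) and 0.00368 in 4T1 alone (2.69%), and no other keratin did. Without the block it did not pass (0.129% and 0.252% of genes passed).

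Krt14 was lowest on collagen I on average in both arms. In co-culture it averaged 156 ± 73.2 per M on fibronectin, 132 ± 79.0 on collagen IV, 124 ± 90.6 on vitronectin, 95.1 ± 58.2 on collagen I and 125 ± 63.3 on uncoated plastic (SD, n = 4, 4, 3, 3 and 4). In 4T1 alone it averaged 189 ± 70.4 on fibronectin, 181 ± 71.5 on collagen IV, 169 ± 80.0 on vitronectin, 126 ± 51.5 on collagen I and 166 ± 54.6 on uncoated plastic (SD, n = 5, 4, 4, 4 and 5). These means overlap within their SDs, and the groups do not hold the same experiments. Over experiments 2 to 5, which hold every substrate in 4T1 alone, Krt14 averaged 183 ± 79.9 on fibronectin, 181 ± 71.5 on collagen IV and 126 ± 51.5 on collagen I (SD, n = 4 each), and collagen IV was above fibronectin in experiments 3 and 5.

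Within experiments the order was tighter. On collagen I, Krt14 was below uncoated plastic in 3 of 3 co-cultures (−0.30 ± 0.06, SD) and in 4 of 4 experiments with 4T1 alone (−0.39 ± 0.19). On fibronectin it was above uncoated plastic in 4 of 4 co-cultures (0.34 ± 0.06) and in 4 of 5 experiments with 4T1 alone (0.16 ± 0.20), the exception being experiment 5. On collagen IV it was above in 2 of 3 co-cultures (0.04 ± 0.19) and in 4 of 4 experiments with 4T1 alone (0.14 ± 0.06). The limma contrast of collagen I with uncoated plastic in 4T1 alone, with the block, was −0.36 ± 0.09 (adjusted p = 0.0618), just outside the threshold.

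The other basal keratin went the other way on collagen I, though without passing a test. Krt17 was above uncoated plastic on collagen I in 3 of 3 co-cultures (0.51 ± 0.41, SD) and in 4 of 4 experiments with 4T1 alone (0.38 ± 0.32), with adjusted p of 0.224 and 0.221 in the limma fit with the block. On collagen I it had 9.85, 4.10 and 2.66 per M in the co-cultures of experiments 2, 4 and 5, and 8.74, 3.34, 8.20 and 4.09 per M in 4T1 alone of experiments 2 to 5. On uncoated plastic it had 2.91, 4.92, 2.41 and 2.51 per M in the co-cultures of experiments 1, 2, 4 and 5, and 3.88, 6.84, 2.79, 4.11 and 3.55 per M in 4T1 alone of experiments 1 to 5. Experiments 2 and 4 held the high values on collagen I. On collagen IV it was above in 2 of 3 co-cultures (0.23 ± 0.38) and in 4 of 4 experiments with 4T1 alone (0.34 ± 0.21).

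Among luminal keratins, the partners Krt8 and Krt18 were lower on collagen IV than on uncoated plastic in every experiment that holds both, and Krt19 was not. Krt8 differed by −0.37 ± 0.33 in co-culture (3 of 3 lower, SD) and by −0.28 ± 0.16 in 4T1 alone (4 of 4), and Krt18 by −0.34 ± 0.30 (3 of 3) and −0.34 ± 0.16 (4 of 4). The mean of the 20 non-keratin epithelial markers also differed on collagen IV, by −0.24 ± 0.30 in co-culture (2 of 3 lower) and −0.06 ± 0.10 in 4T1 alone (3 of 4). The mean log2 level of the T cell markers differed by 0.50 ± 0.93 in the same co-culture pairs, with a highest value of 1.57, and their part was not tested. Krt19 was higher on collagen IV in 2 of 3 co-cultures (0.15 ± 0.21) and in 4 of 4 experiments with 4T1 alone (0.19 ± 0.12). Krt8 had 763, 685, 321 and 499 per M in collagen IV co-cultures of experiments 2 to 5 and 807, 697, 561 and 566 per M in 4T1 alone. On uncoated plastic it had 797, 769, 513 and 663 per M in the co-cultures of experiments 1, 2, 4 and 5 and 830, 837, 915, 691 and 735 per M in 4T1 alone of experiments 1 to 5. On collagen IV, Krt18 had 595, 527, 295 and 445 per M in the co-cultures of experiments 2 to 5 and 639, 567.9, 482 and 516 per M in 4T1 alone. The collagen IV and uncoated values of Krt8 overlapped across experiments but not within them. The coats of an arm share its uncoated wells, so these differences are not independent, and whether Krt14 or Krt19 responded differently from Krt8 was not tested.

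**Figure D4:**
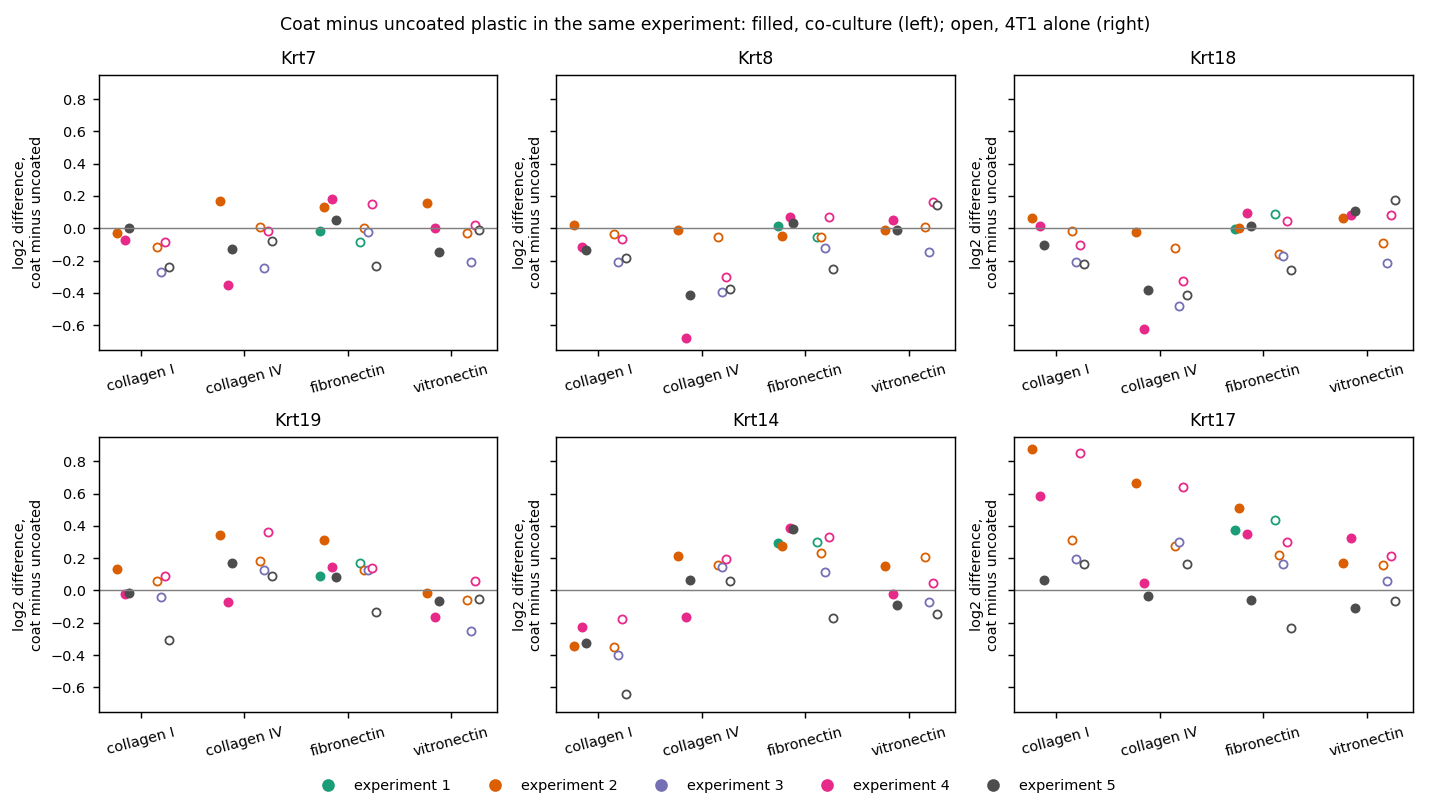
Log2 difference of each coat minus uncoated plastic of the same experiment for the 6 keratins, with co-cultures as filled points on the left and 4T1 alone as open points on the right, coloured by experiment. Krt14 lies below 0 on collagen I in all 7 pairs, and Krt8 and Krt18 lie below 0 on collagen IV in all 7 pairs.

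Genes tied to the keratins were set beside the shares of all genes in the same fits, 12.2% lower (25.2% in either direction) without the block and 23.4% lower (45.8%) with it. Of 4 other keratins tested, 0 passed in limma (1 at an unadjusted p under 0.05) and 0 in edgeR, and with the block Krt16 (−0.37 ± 0.05, adjusted p = 5.42e-06) and Krt80 (−0.18 ± 0.05, 0.00392) fell. Of 21 genes tested that link keratins to desmosomes, hemidesmosomes or the cytoplasm, 1 fell, Pkp2 (−0.15 ± 0.06, 0.0455), a desmosome plaque protein. With the block 9 fell and 1 rose, a total near the 45.8% of all genes called in that fit, among those that fell the plaque genes Jup (−0.23 ± 0.06, 0.00418) and Pkp1 (−0.21 ± 0.05, 0.00202) and Fam83h (−0.14 ± 0.04, 0.00708), which organises keratin filaments. The median of the linkers was −0.11 without the block, against −0.01 over all genes and −0.24 over the 4 luminal keratins.

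Of 9 other intermediate filament genes tested, 2 rose and 4 fell, beside 25.2% of all genes called and 12.2% lower. Vim, the filament of mesenchymal cells and leukocytes, fell by 0.18 (adjusted p = 0.0266), and Nes, a filament of progenitor cells, fell by 0.21 (0.0144). Iffo1 rose by 1.24 ± 0.31 (0.00945), and Nefh, a neurofilament subunit, rose by 0.32 ± 0.11 (0.0393). How far T cell RNA contributes to these values was not tested.

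Among regulators and markers of luminal cells, 2 of 13 tested fell, near the 12.2% of all genes lower, namely Wfdc2 (−0.21 ± 0.06, adjusted p = 0.0117), a secreted epithelial protein, and Gata3 (−0.15 ± 0.05, 0.0340), a luminal transcription factor. T cells also express Gata3. Of 14 regulators and markers of basal cells tested, 0 passed in limma or edgeR without a block (1 in each at an unadjusted p under 0.05), and 7 fell with it in limma (23.4% of all genes were lower in that fit), among them Acta2 (−0.30 ± 0.09, 0.00879), the smooth muscle actin of myoepithelium, Sfn (−0.28 ± 0.05, 0.000227), a basal 14-3-3 protein, Lamb3 (−0.24 ± 0.04, 0.000119), a subunit of laminin 332, and Sox9 (−0.17 ± 0.06, 0.0217). The median difference was −0.09 over the luminal list and −0.11 over the basal list without the block. The luminal count of 2 is from the fit without the block, so it cannot be set against the 7 of the basal list.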

How the data were processed

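RNA of 40 libraries (single-end reads of 75 bases) was aligned with STAR 2.6 to mm10 and counted with featureCounts, and edgeR 3.31.7 was used, per the submitters' processing notes; the annotation is not given in the sources used here. The deposited signal values are the authors' normalised gene counts, 1 column per library, with column sums of 956225 to 1037118. Multiplied by a depth read from their steps, 100% came out as whole reads within 0.01, so depth could be recovered (18.95 to 239.13 M, median 34.57 M), and 3 reads, the limit a count of 0 allows, are 0.0124 to 0.158 per M. Floors cover counting error only. The design had been written for the values as deposited.

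Of 21349 rows, 1 that holds text in place of a number and 1 repeated symbol were left out, and 19 symbols had been turned into dates. Genes with at least 1 per M in at least 3 libraries were tested (14701). limma 3.58.1 (R 4.3.3, intensity trend) was fitted to log2(value + 1) over the 10 group means of all libraries, with Benjamini-Hochberg adjustment over all genes. A log2 difference on this scale understates that of low genes such as Krt17. edgeR 4.0.16 quasi-likelihood tests on the recovered reads, other scalings, filters and pseudocounts, libraries and experiments left out, and the experiment as a block were alternatives. Python 3.11.15 with pandas 2.3.3 was used for the rest.

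The labels number the experiments, described as biological replicates, so the numbers pair the libraries: deviations from group means had a median correlation of 0.478 within a number (156 pairs of libraries) and −0.13 between numbers (562), and the closest library had the same number for 37 of 40. Replicates differed beyond sampling noise in all 62 pairs compared (chi-square per degree of freedom 6.52 to 697). Library names carry a tag (R2, R3 or none) whose meaning is not given. In experiment 4 all libraries of 4T1 alone had R3 and no co-culture did. In experiment 2 all co-cultures had R2, as did only uncoated plastic in 4T1 alone. Where the tag goes with the arm, its part in the T cell difference cannot be told apart. In 4T1 alone, collagen I and collagen IV differed from uncoated plastic in tag in experiments 2, 3 and 5, and shared it in experiment 4. In the co-cultures of experiment 4, uncoated plastic had R2 and the coats had none. Fibronectin and vitronectin also differed from uncoated plastic in some experiments. Where the tag goes with the coat, its part in the coat difference cannot be told apart either. Gene lists cover other keratins, keratin linkers, other intermediate filaments, luminal and basal regulators, non-keratin carcinoma markers and markers of T cells, leukocytes, B cells, myeloid cells, erythroid cells, fibroblasts and endothelium. Up to 4 genes per list that passed, with the largest differences, were named. Members and lists were chosen with earlier results of these data known. Gene models are from GENCODE M21, coding lengths too. The limma fits and the edgeR test were tested on simulated data with known changes. The simulated libraries held no differences between experiments, so that trial does not bear on how the fits handle them.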

Additional observations from a re-analysis of the deposited data

Results flagged for a closer look

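Krt17 had 8.37 reads per M in the collagen IV co-culture of experiment 2, far from the other 3 libraries of that group (2.43 to 2.69). It was the only such value among 48 sets of a keratin and a group of at least 4 libraries, and chance alone marks about 1 in 20. Its pair of 4T1 alone had 8.495 per M.

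The T cell effect on the keratins differed between the 5 experiments in an interaction test (limma, adjusted over all genes, 45.1% of which passed). The adjusted p was 7.60e-06 for Krt19, 0.000861 for Krt7, 0.00108 for Krt8, 0.00248 for Krt14, 0.0210 for Krt17 and 0.0343 for Krt18. The largest mean falls within pairs were in experiment 4, at −0.53 for Krt8 and −0.66 for Krt14. The T cell markers summed to 1101.5 to 3325 per M in the co-cultures there, and their part in the result was not tested.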

How the results depend on the processing

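The count of 4 keratins that fell with T cells kept within 1.5 times under most settings, and was 0 after scaling to the 20 non-keratin carcinoma markers, where the median of all genes moved to 0.12 and 311 genes were higher and 1 lower. Leaving out an experiment or a library gave 0 (without experiment 4) to 6 (without experiment 2), with 1 without experiment 3 and 2 without the experiment 4 co-culture on collagen I or that on vitronectin. edgeR without a block gave 3 (Krt8 adjusted p = 0.0507). The 3710 genes called (1922 higher, 1788 lower) became 6726 with the replicate block, 6561 with the block in edgeR, 312 with marker scaling, 430 without experiment 4, 1365 without experiment 3 and 1535 with the block and without experiment 4. The split was 2287 higher and 948 lower with equal column sums, 1504 and 3076 with quantile normalisation, 2534 and 1416 in edgeR with TMM factors, 2607 and 1249 with RLE factors, 2135 and 1521 with no filter, and 964 and 1645 with a mean of at least 10.

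Keratin counts that were 0 changed as follows with the replicate block. Uncoated plastic gave 1 in limma, 2 in edgeR and 1 without experiment 4, collagen IV gave 1 in limma and 2 in edgeR, and vitronectin gave 1 in edgeR. Collagen I against uncoated plastic in 4T1 alone gave 1 without experiment 4. The test over substrates gave 1 in each arm under limma, under edgeR and under limma without experiment 4. The test of the T cell effect between experiments, 6 keratins with all experiments, gave 0 without experiment 4. The last setting, the block without experiment 4 and the block with marker scaling were chosen after seeing the data. The causes were not tested. The T cell difference averaged over substrates kept its direction for all 6 keratins in each setting. Of the other fitted differences, 25 that did not pass (24 of a coat against uncoated plastic, and Krt17 with T cells on collagen I) changed sign in 1 to 13 settings, 0 of them past the threshold. The lowest recovered count of a member was 51 reads, of Krt17 in the collagen IV co-culture of experiment 3. Counting error adds to the pair and coat differences of Krt17.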
